A study of Rattus norvegicus with 120 samples.

Results

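Small RNA libraries of the whole hippocampus were compared between adult and infant rats that had not been made epileptic. The 18 libraries were those of the saline control rats of the acute stage, chosen by their labels from 114 libraries with counts (120 are labelled). The adult controls (9 libraries) were taken at postnatal day 61 and the infant controls (9 of 10 labelled libraries) at postnatal day 13. All were male Wistar rats. Each had received LiCl 24 hours before the saline, which was given at postnatal day 60 or 12 in place of pilocarpine, the muscarinic agonist that started status epilepticus (SE) in the other rats of the study. Tissue was collected 24 hours after the saline, with 1 library per rat. The paper describes the dissection, from both hemispheres, for its rats of the chronic stage, and the same was assumed for the acute stage. The series also holds SE rats of the same ages (17 acute libraries, 9 adult and 8 infant) and further controls taken 1 week later (latent stage, 10 libraries per arm, postnatal days 67 and 19) or 3 months later (chronic stage, 10 libraries of the adult arm and 9 of the infancy arm). These were used only beside the acute controls. Saline controls carried the LiCl and the handling too, so the groups were not untreated rats. The comparison reads hippocampal maturation between the ages at which SE was induced.

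Mature miRNAs are short RNAs that guide Argonaute proteins to messenger RNAs, mostly by pairing through the seed, the bases from position 2 to position 8. Many are made from clusters of hairpins that are transcribed together, and either arm of a hairpin can give a mature miRNA. In the rat hippocampus, the weeks after birth are a time of myelination, synapse formation and continued production of granule cells in the dentate gyrus. Among the miRNAs of the brain, miR-219 and miR-338 are known for oligodendrocyte differentiation, miR-29 for its rise in maturing neurons, let-7 for its rise with differentiation, and the miR-17-92 cluster for its link to proliferation. In bulk tissue, more cells of a type and more of a miRNA per cell cannot be told apart.

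The sequences below are those on which the results turn. They are mature sequences from RefSeq (rat build GRCr8), written 5' to 3', and the capitals mark the seed. Of the 383 miRNAs tested, 355 matched a RefSeq mature sequence by name. The miR-29 family, whose members share 1 seed, was higher in adult controls throughout.
miR-29a-3p: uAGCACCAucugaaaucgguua
miR-29b-3p: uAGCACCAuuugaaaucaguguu
miR-29c-3p: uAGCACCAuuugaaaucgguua
The oligodendrocyte miRNAs were also higher in adult controls and have seeds of their own.
miR-338-3p: uCCAGCAUcagugauuuuguuga
miR-219a-5p: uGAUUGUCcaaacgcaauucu
miR-219a-2-3p: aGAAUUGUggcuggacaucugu
The next groups are shown because miRNAs with the same seed went in opposite directions. miR-34a-5p was higher and miR-449a-5p lower in adult controls.
miR-34a-5p: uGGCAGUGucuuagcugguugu
miR-449a-5p: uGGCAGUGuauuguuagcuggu
Of the next trio, miR-125a-5p was higher, and miR-125b-5p and miR-351-5p were lower, though the call of miR-125b-5p depended on the scaling.
miR-125a-5p: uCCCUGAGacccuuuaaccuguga
miR-125b-5p: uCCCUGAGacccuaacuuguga
miR-351-5p: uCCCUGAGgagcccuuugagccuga
Of the miR-181 family, miR-181a-5p was higher and miR-181c-5p and miR-181d-5p were lower, and miR-181b-5p did not pass the test.
miR-181a-5p: aACAUUCAacgcugucggugagu
miR-181b-5p: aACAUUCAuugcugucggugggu
miR-181c-5p: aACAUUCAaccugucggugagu
miR-181d-5p: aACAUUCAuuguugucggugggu
The last sequences belong to clusters that were lower in adult controls, miR-296 and miR-298 of chromosome 3 and miR-17 and miR-20a of chromosome 15.
miR-298-5p: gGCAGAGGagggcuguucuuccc
miR-296-5p: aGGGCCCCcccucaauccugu
miR-17-5p: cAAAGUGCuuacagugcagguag
miR-20a-5p: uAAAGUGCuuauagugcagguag

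In GRCr8, miR-29a-3p lies at chr4:60617968-60617989 and miR-338-3p at chr10:105796345-105796367, both on the minus strand. miR-449a-5p lies at chr2:46403925-46403946 on the plus strand and miR-34a-5p at chr5:165815971-165815992 on the plus strand. miR-298-5p lies at chr3:183470571-183470593 on the minus strand. miR-29a-3p and miR-29c-3p differ at 1 base, as do miR-181b-5p and miR-181d-5p, miR-27a-3p and miR-27b-3p, and several let-7 pairs. let-7a-1-3p and let-7c-2-3p do not differ at all, so the counts below hold 1 sequence under both names. The study's assignment allowed up to 1 mismatch, so the levels of such near-identical miRNAs are those the authors assigned to each and are uncertain where reads could go to either.

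The adult control libraries held from 507283 to 4026890 miRNA reads (median 1838745) and the infant ones from 309975 to 1655679 (median 1094985), with 476 to 565 miRNAs detected in adult and 482 to 549 in infant libraries. Of 623 miRNAs listed, 383 had more than 500 reads summed over the 35 libraries of the acute stage and were tested, and they held at least 99.898% of each control library's reads. miR-128-2-5p, with 506 reads, was just above this minimum and miR-33-3p, with 486 reads, just below. No 2 control libraries were identical, and the rank correlation of their counts ran from 0.9364 to 0.992 within a group and from 0.8757 to 0.928 between the groups. Library numbers of the ages do not interleave and no batch is labelled, so a preparation batch and age cannot be told apart. Libraries stood apart within both groups. Infant 2, with the fewest reads, held 7930.6 CPM of miR-204-5p against 457.2 to 819.5 in the other infant controls. Adult 1 held 108.6 CPM of miR-155-5p against 4.14 to 9.10 in the other adult controls, and adult 4 was lowest of its group for miR-9a-3p and let-7g-5p.

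On the first principal component of the log2 levels, which held 62.5% of the variance, the adult controls lay between 8.49 and 11.46 and the infant controls between -10.99 and -9.25. Levels are given as CPM, counts per 1000000 miRNA reads, with library sizes scaled by TMM in edgeR. A log2 fold change is adult minus infant controls with its standard error (±), a miRNA is called where the Benjamini-Hochberg adjusted p of edgeR's quasi-likelihood test over all 383 miRNAs was under 0.05, and n was 9 and 9 libraries in each such test.

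Most miRNAs differed between the adult and infant groups. Of the 383 tested, 257 were called (67.1%), 124 higher (32.4%) and 133 lower (34.7%) in adult controls. These shares over all miRNAs are the ones to set beside the counts of each list below. The levels of the groups did not overlap for 99 miRNAs (25.8%), 40 higher (10.4%) and 59 lower (15.4%). With a fold of at least 1.4 required as well, 220 (57.4%) were called, 103 higher (26.9%) and 117 lower (30.5%). A log2 fold change of at least 1 in size and a call was reached by 120 miRNAs (31.3%), 47 higher (12.3%) and 73 lower (19.1%), and one of at least 2 by 23 (6.01%), 9 higher (2.35%) and 14 lower (3.66%). The median log2 fold change over all tested miRNAs was -0.04. It was -0.20 when libraries were scaled by their totals alone, with 249 calls, 96 higher and 153 lower, so the direction of small fold changes depends on the scaling. Without adult 1, adult 4 and infant 2 there were 252 calls, of which 241 were among the 257.

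**Figure D1:**
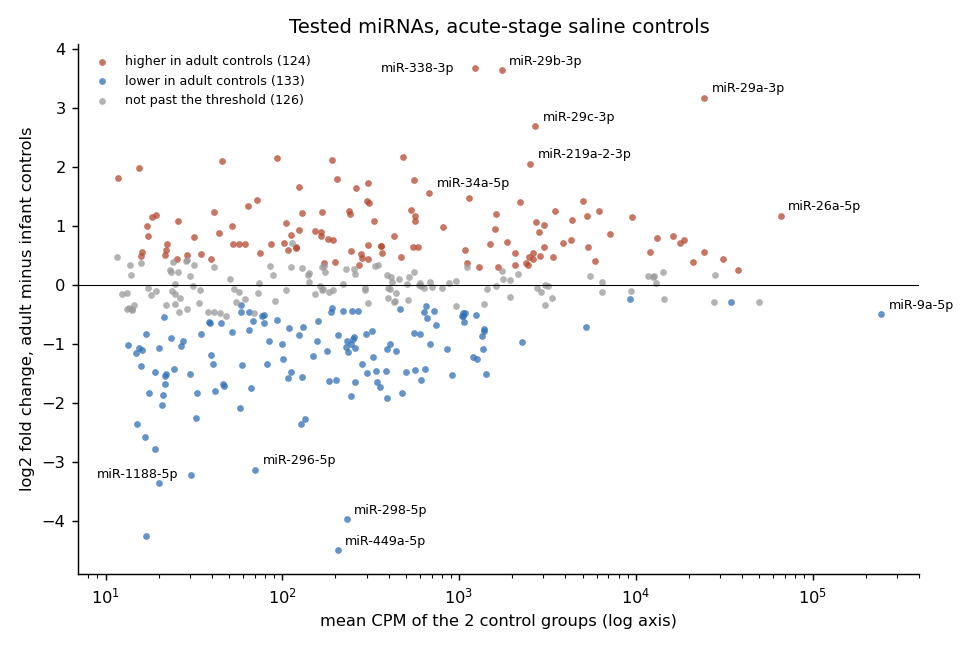
Each point is 1 of the 383 tested miRNAs, placed by its mean CPM over the adult and infant control groups (log axis) and its log2 fold change, adult minus infant controls. Red points (124) were higher and blue points (133) lower in adult controls past the adjusted p threshold, and grey points (126) were not past it. The miR-29 family and miR-338-3p stand at the top and miR-449a-5p and miR-298-5p at the bottom.

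The miR-29 family had the largest median log2 fold change of the 19 families and clusters examined, with 3 of 3 members called higher. These miRNAs are known to repress collagens and other matrix genes and the de novo DNA methyltransferases. miR-29a-3p measured from 37433.0 to 47747.4 CPM (median 45172.1) in adult controls and from 4115.5 to 6219.8 CPM (median 4884.8) in infant controls. Every adult library was above every infant library by a wide margin. Its log2 fold change was 3.18 ± 0.10, 9.04-fold (edgeR, adjusted p = 6.26e-27), and its share of all miRNA reads was 4.15% in adult and 0.49% in infant controls (medians). miR-29b-3p, the least abundant of the family, measured from 1803.2 to 4419.9 CPM (median 3076.0) in adult controls and from 196.6 to 431.1 CPM (median 244.8) in infant controls. The groups did not overlap, with a log2 fold change of 3.64 ± 0.19 (edgeR, adjusted p = 9.17e-19). miR-29c-3p measured from 3532.1 to 6298.2 CPM (median 4670.6) in adult controls and from 614.1 to 938.5 CPM (median 729.2) in infant controls, with a log2 fold change of 2.69 ± 0.13. Summed over the family, the median was 51611.8 CPM in adult controls and 5695.4 CPM in infant controls. The other arms of the same hairpins rose too, by less: the log2 fold change was 2.16 for miR-29a-5p, 1.23 for miR-29b-5p and 1.67 for miR-29c-5p. The miR-29 hairpins lie in clusters on chromosome 4 (miR-29a and miR-29b) and chromosome 13 (miR-29b and miR-29c), and all tested products of both clusters were called higher.

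The oligodendrocyte miRNAs rose together: 4 of 4 tested members were called higher, with a median log2 fold change of 2.15 beside -0.04 over all miRNAs. miR-338-3p, which lies in an intron of Aatk and promotes oligodendrocyte maturation, had the largest positive log2 fold change of all miRNAs tested. It measured from 1521.8 to 3442.6 CPM (median 2169.1) in adult controls and from 107.9 to 227.5 CPM (median 191.7) in infant controls. No adult library came near the infant range, and the log2 fold change was 3.68 ± 0.20, 12.8-fold (edgeR, adjusted p = 2.81e-18). Its other arm, miR-338-5p, measured from 720.9 to 868.2 CPM (median 775.9) in adult controls and from 97.82 to 235.5 CPM (median 190.4) in infant controls, a log2 fold change of 2.17 ± 0.16. In infant controls the arms were thus near the same level, and in adult controls the 3p arm was the more abundant. miR-219a-2-3p, the most abundant of the list, measured from 2181.6 to 5234.3 CPM (median 4211.2) in adult controls and from 326.4 to 1586.0 CPM (median 1027.4) in infant controls. The infant libraries were spread widely but stayed below all adult ones, with a log2 fold change of 2.06 ± 0.27 (edgeR, adjusted p = 2.11e-08). miR-219a-5p measured from 107.4 to 491.6 CPM (median 282.1) in adult controls and from 38.63 to 170.1 CPM (median 57.43) in infant controls, so the groups overlapped, and its log2 fold change was 2.13 ± 0.32.

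**Figure D2:**
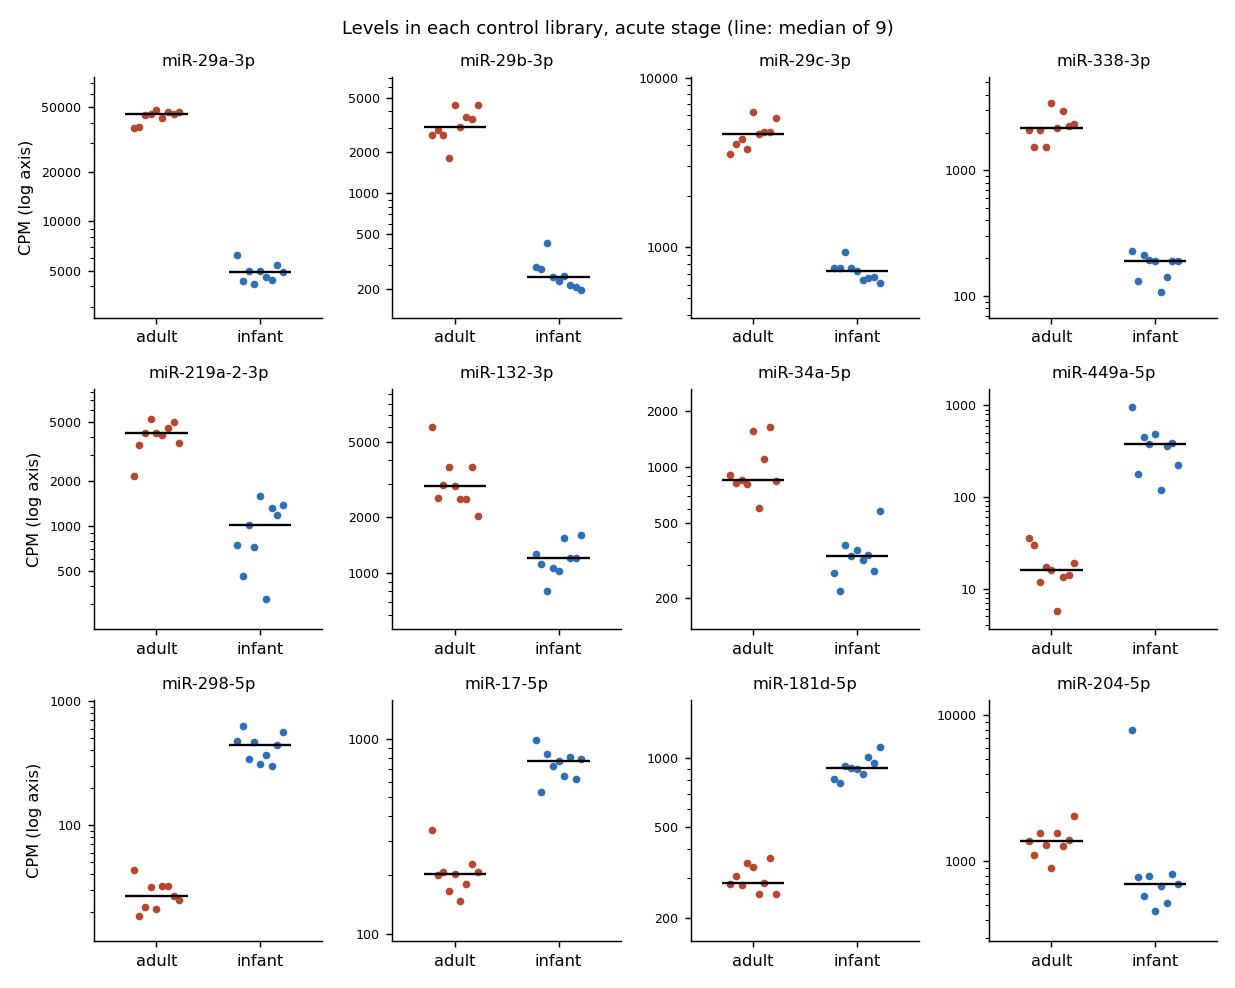
CPM of 12 miRNAs (log axis, its range differs between panels) in each of the 9 adult (red, left) and 9 infant (blue, right) control libraries of the acute stage, with the median of each group as a line. For 11 of the 12 the groups do not overlap, and for miR-204-5p infant 2, at 7930.6 CPM, lies above all other libraries.

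Neuron-enriched miRNAs rose by smaller amounts, with 8 of 12 called higher and none lower, beside 32.4% and 34.7% of all miRNAs. Their median log2 fold change was 0.44. miR-124-3p, the best known neuronal miRNA, measured from 12639.1 to 23780.6 CPM (median 16393.6) in adult controls and from 6163.0 to 18609.2 CPM (median 9314.7) in infant controls, where the highest value was that of infant 2. This gave a log2 fold change of 0.80 ± 0.21 (edgeR, adjusted p = 0.00106). miR-218a-5p, enriched in neurons and encoded in Slit genes, had a log2 fold change of 0.84 ± 0.16, with a median of 22248.2 CPM in adult and 11402.1 CPM in infant controls. miR-153-3p (1.09 ± 0.28) and miR-129-2-3p (0.98 ± 0.24) had larger ones at lower levels. miR-138-5p, a regulator of spine size, rose by 0.49 ± 0.12 and miR-128-3p by 0.25 ± 0.11. miR-128-3p lost its call when any of 10 single libraries was left out (adjusted p up to 0.0873). miR-137-3p (edgeR, adjusted p = 0.978) and miR-7a-5p, at a log2 fold change of 0.15 ± 0.14, did not pass the test. With scaling by library totals, 6 of the 12 were called higher, and 6 also without the 3 libraries that stood apart.

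Activity-regulated miRNAs split. miR-132 and miR-212 come from 1 transcript that the transcription factor CREB drives in active neurons, and all 4 of their tested arms rose. miR-132-3p measured from 2014.2 to 6031.5 CPM (median 2930.1) in adult controls and from 802.2 to 1593.6 CPM (median 1197.7) in infant controls, without overlap, and adult 1 was the highest library. The log2 fold change was 1.41 ± 0.18 (edgeR, adjusted p = 1.62e-08). miR-212-3p, which shares its seed, had 1.64 ± 0.25, miR-132-5p 1.78 ± 0.14 and miR-212-5p 1.74 ± 0.18. miR-134-5p, which limits dendritic spine size and belongs to the imprinted miR-379/410 cluster, went the other way: it measured from 282.7 to 503.5 CPM (median 329.0) in adult controls and from 735.5 to 1112.8 CPM (median 921.2) in infant controls. Its groups did not overlap, and its log2 fold change was -1.42 ± 0.13.

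Other lists rose, some of them as whole genomic clusters. Beside 32.4% of all miRNAs, 8 of 8 tested members of the miR-23/27/24 clusters of chromosomes 17 and 19 were called higher (median log2 fold change 1.25). Of these, miR-27b-3p measured from 5437.4 to 8635.2 CPM (median 7568.0) in adult controls and from 1873.1 to 3835.3 CPM (median 2683.0) in infant controls. miR-23b-3p had a log2 fold change of 1.25 ± 0.12, miR-27a-3p 1.47 ± 0.16 and miR-24-1-5p 2.11 ± 0.32. In the X-linked cluster of miR-221 and miR-222, known for cell cycle control and vessel biology, 3 of 3 were higher, and miR-221-3p measured from 5164.3 to 10800.3 CPM (median 6623.5) in adult controls and from 2460.7 to 4313.6 CPM (median 3103.6) in infant controls. miR-221-5p, its other arm, had the larger log2 fold change (1.80 ± 0.15 against 1.18 ± 0.14). In the miR-30 family 7 of 10 members were higher and none lower, beside 32.4% and 34.7% of all miRNAs. The median was 0.55, and miR-30e-5p led (0.72 ± 0.14). miR-30c-5p and miR-30e-3p did not overlap between the groups. With scaling by library totals, 6 of the miR-30 members were called higher and 1 lower. miR-344a-3p, of a rodent cluster on chromosome 1, had a log2 fold change of 1.24 ± 0.17 and miR-344b-5p of 0.63 ± 0.20, and miR-344b-1-3p, at 0.03 ± 0.23, did not pass. Without the 3 libraries that stood apart, miR-344b-5p had 0.37 and was no longer called.

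The let-7 guide strands, which share 1 seed, differed little. Of 9 members 5 were called higher and none lower, beside 32.4% and 34.7% of all miRNAs, with a median log2 fold change of 0.34. Under scaling by library totals 4 were called higher and 1 lower. let-7g-5p measured from 14567.8 to 26274.0 CPM (median 24801.8) in adult controls and from 11965.1 to 15879.8 CPM (median 14118.6) in infant controls. Only adult 4 lay within the infant range, and the log2 fold change was 0.77 ± 0.11 (edgeR, adjusted p = 1.63e-07). let-7d-5p (0.64 ± 0.13), let-7e-5p (0.47 ± 0.10) and let-7f-5p (0.44 ± 0.13) were also higher. let-7c-5p, at -0.29 ± 0.15, and let-7b-5p, at -0.10 ± 0.13, did not pass the test. The summed level of the family ran from 119032.8 to 147728.9 CPM (median 133369.1) in adult controls. In infant controls it ran from 98069.1 to 123228.0 CPM (median 117593.9), so the groups overlapped.

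The most abundant miRNA of all fell. miR-9a-5p, known for neural progenitors and neurogenesis, measured from 122590.6 to 245212.1 CPM (median 211568.7) in adult controls and from 216118.8 to 368073.9 CPM (median 280277.6) in infant controls. The ranges overlapped, and the log2 fold change was -0.49 ± 0.14 (edgeR, adjusted p = 0.0019). As a share of reads it held 19.41% in adult and 29.11% in infant controls. Its other arm, miR-9a-3p, had a log2 fold change of -0.28 ± 0.14 and was not called. miR-26a-5p, the next in mean level over the 18 libraries (in infant controls miR-9a-3p was above it), rose with no overlap: it measured from 82622.4 to 102098.5 CPM (median 91536.7) in adult controls and from 34336.6 to 47887.8 CPM (median 40052.7) in infant controls, a log2 fold change of 1.18 ± 0.08 (edgeR, adjusted p = 7.73e-16). The 10 most abundant miRNAs together held a median of 53.83% of reads in adult and 59.64% in infant controls. Of these, miR-30a-5p rose by 0.56 ± 0.16, and miR-30d-5p, at 0.17 ± 0.14, was not called. miR-125b-5p had -0.28 ± 0.11 and lost its call without any of 4 single libraries (edgeR, adjusted p up to 0.0606). Its call was also lost with median-of-ratios scaling and in DESeq2.

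The miR-17-92 cluster, linked to proliferation, and its paralogous clusters were mostly lower in adult controls. Not every cluster known for cell cycle control fell, since the tested products of miR-221 and miR-222 were higher. Of 10 tested members of miR-17-92 and its paralogous clusters, 9 were called lower and none higher, beside 34.7% and 32.4% of all miRNAs. The median log2 fold change was -1.21. miR-17-5p measured from 148.0 to 341.6 CPM (median 202.7) in adult controls and from 532.1 to 981.0 CPM (median 768.5) in infant controls. The groups did not overlap, with a log2 fold change of -1.83 ± 0.14 (edgeR, adjusted p = 8.77e-14). miR-18a-5p, from the same transcript, had -2.08 ± 0.20, miR-19b-3p -1.64 ± 0.16 and miR-20a-5p -1.47 ± 0.15. miR-106b-5p (-0.99 ± 0.13) and miR-93-5p (-0.78 ± 0.12), from a paralogous cluster with the same seed as miR-17-5p, fell by less, and miR-92b-3p, at 0.19, was the member not called. In the X-linked cluster of miR-322, miR-503, miR-450 and miR-542, whose leading members are known to slow the cell cycle, 9 of 9 members of the list were lower (median -1.48). miR-351-5p measured from 147.1 to 183.9 CPM (median 161.9) in adult controls and from 428.4 to 800.9 CPM (median 578.9) in infant controls, and it had -1.92 ± 0.13. miR-503-5p (-1.75 ± 0.20), miR-322-3p (-1.48 ± 0.17) and miR-322-5p (-1.12 ± 0.14) did not overlap between the groups either. Another X-linked cluster, of miR-188, miR-362, miR-500, miR-501 and miR-532, had 6 of 6 tested products called lower, with a median of -1.60.

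The imprinted miRNAs of the Dlk1-Dio3 region on chromosome 6 were mostly lower. Of the 43 tested members of the miR-379/410 list 28 were called lower and 1 higher (median log2 fold change -0.51). In the Rtl1-antisense group 11 of 17 were lower and 1 higher (median -0.50). Among all miRNAs, 34.7% were called lower and 32.4% higher. The count of lower calls in the miR-379/410 list depended on the scaling, with 26 in DESeq2 and 32 with library totals. The list leaves out some products of the miR-379/410 cluster: over all 54 that were tested and placed there by position, 35 were lower and 2, miR-376b-5p and miR-485-5p, higher (median -0.52). Among members of the lists above 50 CPM in a group, the lowest fold changes were those of miR-770-3p, which lies in Meg3 and measured from 25.53 to 78.26 CPM (median 35.54) in adult controls and from 159.6 to 266.1 CPM (median 194.2) in infant controls (log2 fold change -2.35 ± 0.18), and of miR-412-5p (-1.88 ± 0.16). miR-380-3p measured from 628.3 to 874.4 CPM (median 723.7) in adult controls and from 1724.6 to 2559.3 CPM (median 2054.2) in infant controls, a log2 fold change of -1.50 ± 0.12. miR-496-3p (-1.14 ± 0.11), miR-433-3p (-1.08 ± 0.15), miR-433-5p (-1.04 ± 0.15) and miR-127-5p (-0.75 ± 0.13) fell as well. Members of 1 cluster thus differed widely in size. miR-379-5p itself, at -0.04, and miR-411-5p, at 0.11, did not pass. In a neighbouring cluster of miR-1188, miR-341 and miR-370, 3 of 3 tested products were called lower, and miR-1188-5p had -3.21 ± 0.25, from 1.73 to 10.34 CPM (median 5.79) in adult controls against 41.37 to 71.94 CPM (median 56.06) in infant controls.

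**Figure D3:**
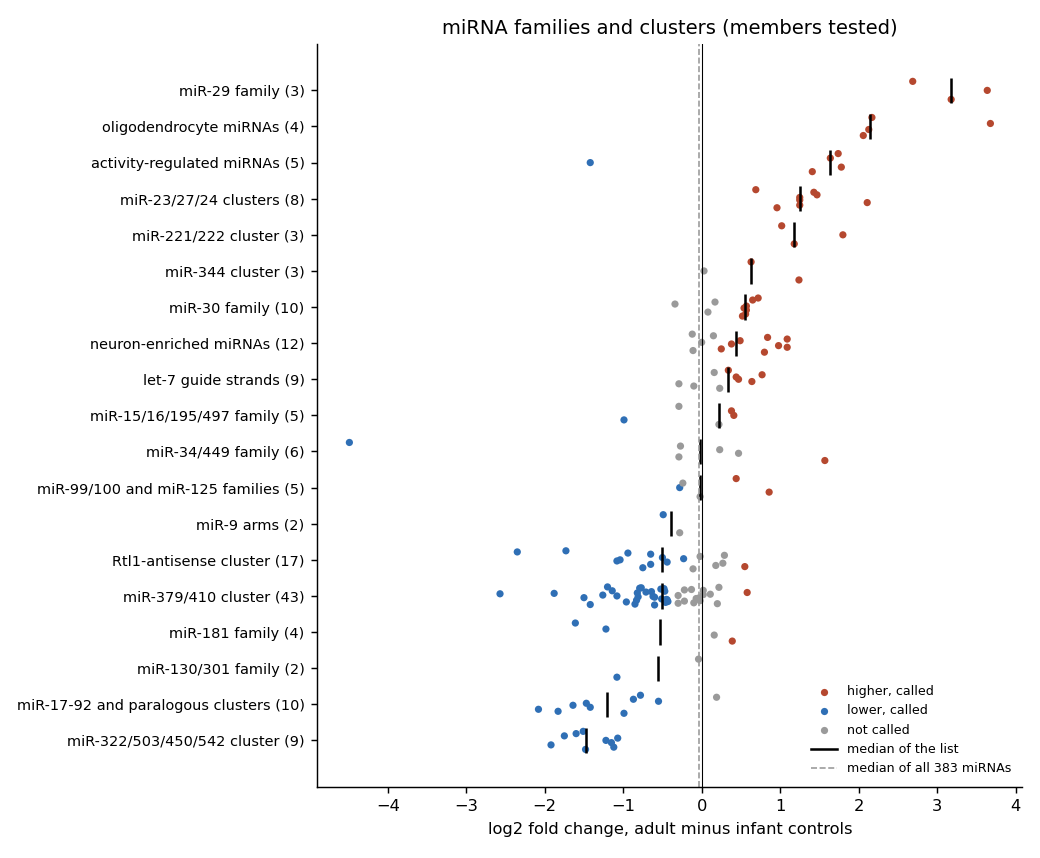
Log2 fold change, adult minus infant controls, of each tested member of 19 families and clusters, with the number tested after the name. Colours mark members called higher (red), called lower (blue) or not called (grey), black lines the median of each list and the dashed line the median of all 383 miRNAs (-0.04). The miR-29 family is at the top (median 3.18) and the cluster of miR-322 and miR-503 at the bottom (median -1.48).

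The steepest falls were those of miR-449a-5p and of the miR-296/298 cluster. miR-449a-5p, known from multiciliated cells, measured from 5.79 to 35.54 CPM (median 16.13) in adult controls and from 118.6 to 948.5 CPM (median 379.7) in infant controls. The lowest infant library was above the highest adult library, and the log2 fold change, the largest negative one, was -4.49 ± 0.36 (edgeR, adjusted p = 1.85e-13). Infant 2 was again the highest library, and with any 1 library left out the log2 fold change stayed between -4.62 and -4.23. miR-298-5p measured from 18.59 to 43.43 CPM (median 26.86) in adult controls and from 297.9 to 635.8 CPM (median 443.1) in infant controls, with a log2 fold change of -3.97 ± 0.25, 15.7-fold lower in adults (edgeR, adjusted p = 1.28e-16). miR-296-5p measured from 4.33 to 27.81 CPM (median 14.82) in adult controls and from 90.85 to 203.8 CPM (median 121.0) in infant controls (-3.13 ± 0.26). Both lie within 1 kilobase of each other at the imprinted Gnas locus of chromosome 3, and all 4 tested products of their hairpins were called lower, with a median of -3.67. miR-193b-3p, at -1.79 ± 0.28, measured from 5.79 to 40.75 CPM (median 16.16) in adult controls and from 44.32 to 87.56 CPM (median 62.08) in infant controls.

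Over the genome, 35 clusters (hairpins at most 10000 bases apart in GRCr8) had at least 2 hairpins tested. In 27 of them calls went in 1 direction only, in 4 both directions occurred and in 4 there was no call. Since 67.1% of all miRNAs were called, many such clusters can occur without any link between members. The counts of clusters and of arm pairs were not tested against that share. The mature miRNA names of some clusters belong to more than 1 locus, so reads of miR-17-5p, miR-19b-3p and miR-92a-3p could come from chromosome 15 or X. Such miRNAs were counted in each cluster that holds their name. Of 110 hairpins with both arms tested, 49 had both arms called in the same direction, 22 higher and 27 lower, and 85 had the same sign. In 5 hairpins the arms were called in opposite directions. miR-485 was one: its 5p arm had a log2 fold change of 0.58 ± 0.16 and its 3p arm of -0.82 ± 0.19. In miR-376b the 5p arm measured from 172.7 to 464.1 CPM (median 324.9) in adult controls and from 133.2 to 167.5 CPM (median 142.1) in infant controls, without overlap (1.20 ± 0.19). Its 3p arm had -0.44 ± 0.18. The arms of miR-374 had -0.44 ± 0.17 (5p) and 0.85 ± 0.21 (3p), those of miR-139 0.73 ± 0.17 (5p) and -0.45 ± 0.19 (3p), and those of miR-325 0.39 ± 0.12 (5p) and -0.41 ± 0.13 (3p). The calls of miR-139-3p, miR-374-5p and miR-376b-3p were each lost when some single libraries were left out (adjusted p up to 0.0782, 0.0900 and 0.0670).

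Members of 1 seed could go in opposite directions. Of 12 seeds with at least 3 miRNAs tested, calls went in 1 direction in 7 and in both directions in 5. These counts stand beside 32.4% of all miRNAs called higher and 34.7% lower. Within the seed of miR-34 and miR-449, miR-34a-5p, a miRNA induced by p53 and known in neuronal differentiation, measured from 605.1 to 1639.1 CPM (median 855.7) in adult controls and from 217.2 to 581.6 CPM (median 333.2) in infant controls. Its groups did not overlap (log2 fold change 1.57 ± 0.23, edgeR, adjusted p = 1.54e-07), while miR-449a-5p was lower by the amounts given above. Summed over that seed the median was 1373.2 CPM in adult and 981.2 CPM in infant controls, with ranges of 1110.5 to 1863.8 CPM in adult and 556.9 to 3613.7 CPM in infant controls. Within the seed of miR-125, miR-125a-5p measured from 7262.8 to 12436.0 CPM (median 8288.1) in adult controls and from 4053.4 to 6339.9 CPM (median 4659.7) in infant controls (0.86 ± 0.14), against the fall of miR-351-5p. The summed median of this seed was 39506.9 CPM in adult and 43139.8 CPM in infant controls, ranges that overlapped.

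In the miR-181 family, known for roles in lymphocytes and at synapses, the hairpins of chromosome 19 fell. miR-181d-5p measured from 253.8 to 365.7 CPM (median 283.4) in adult controls and from 778.6 to 1122.5 CPM (median 904.9) in infant controls, with no overlap and a log2 fold change of -1.61 ± 0.10 (edgeR, adjusted p = 1.36e-16). miR-181c-5p had -1.22 ± 0.14. The far more abundant miR-181a-5p measured from 18769.8 to 36704.0 CPM (median 23169.0) in adult controls and from 14724.7 to 24994.1 CPM (median 17855.0) in infant controls (0.39 ± 0.14), a call that was lost with scaling by library totals, and miR-181b-5p had 0.16 ± 0.14. The summed seed, at medians of 29458.8 CPM in adult and 25612.1 CPM in infant controls, overlapped between the groups. In the seed of miR-15, miR-16 and miR-322, miR-16-5p (0.41 ± 0.17) and miR-195-5p (0.38 ± 0.17) were higher and miR-15b-5p (-0.99 ± 0.12) and miR-322-5p lower, and miR-497-5p, at -0.29 ± 0.18, was not called. The calls of miR-16-5p and miR-195-5p were lost without any of 11 and 12 single libraries (edgeR, adjusted p up to 0.0853 and 0.0878). Both were also lost with scaling by library totals. miR-99b-5p had 0.44 ± 0.14 and miR-99a-5p -0.24 ± 0.15, which did not pass. Of the miR-130 family, miR-130a-3p fell by 1.08 ± 0.15 and miR-301a-3p had -0.04 ± 0.17.

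**Figure D4:**
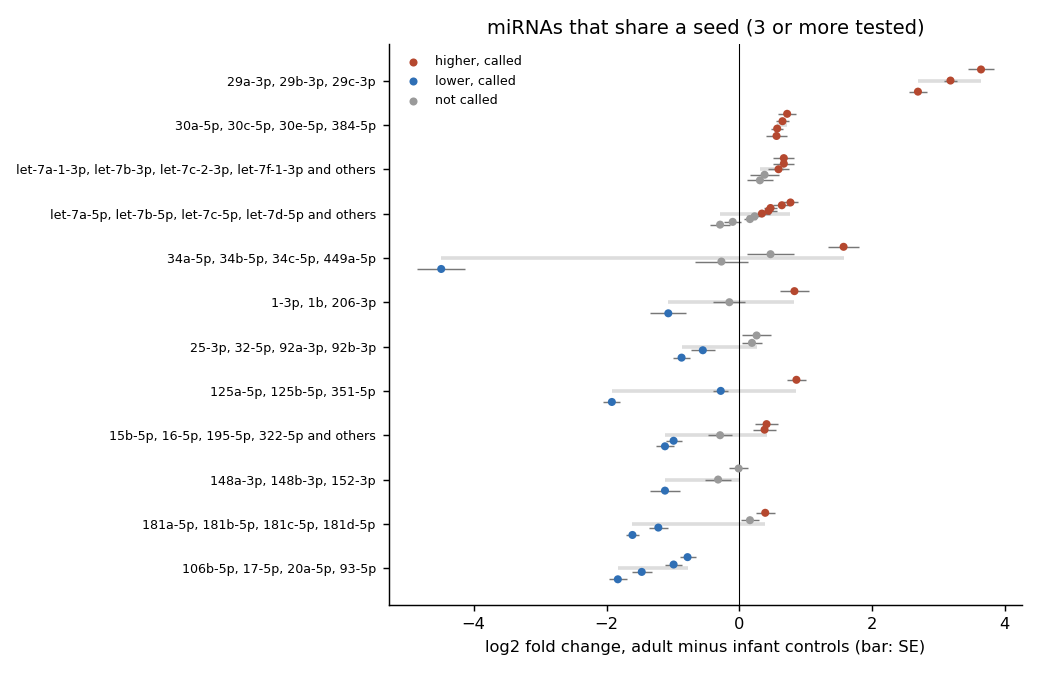
Log2 fold change, adult minus infant controls, with its standard error, of the members of the 12 seeds with at least 3 tested miRNAs, with up to 4 members named on the vertical axis. Members called higher are red, called lower blue and not called grey, and grey bands join the extremes. With the TMM scaling used here, red and blue occur together in 5 seeds, widest between miR-34a-5p (1.57) and miR-449a-5p (-4.49).

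Markers of other cell types were set beside these results. Neuronal (3 of 3) and oligodendrocyte (3 of 3) markers were detected in every library of the labelled tissue. Of the vessel wall markers 0 of 5 were called by edgeR, with 0 also at an unadjusted p under 0.05, and their summed level ran from 16564.5 to 25320.8 CPM in adult and from 10777.4 to 32435.5 CPM in infant controls. Of the erythroid markers miR-486 was lower (-0.92 ± 0.18) and the 3 others were not called (summed level 330.6 to 746.1 CPM in adult and 537.7 to 928.0 CPM in infant controls). Of 6 microglial and blood markers, 2 were called higher and 2 lower (summed level 949.8 to 1492.6 CPM in adult and 723.9 to 913.3 CPM in infant controls). miR-150-5p, a lymphocyte miRNA, rose by 1.18 ± 0.17, and miR-142-5p had 0.70 ± 0.27, a call lost without any of 4 single libraries (adjusted p up to 0.0542). miR-146a-5p, an inhibitor of NF-kB signalling, fell by 0.85 ± 0.17. miR-155-5p, induced in inflammation, measured from 4.14 to 108.6 CPM (median 7.36) in adult controls and from 29.55 to 58.48 CPM (median 49.25) in infant controls. The log2 fold change of miR-155-5p was -1.83 ± 0.47, and without adult 1 it was -2.77. The defining markers miR-196a, miR-196b and miR-196c of the spinal cord were not listed. miR-10a-5p (1.82 ± 0.50) and miR-10b-5p (-2.26 ± 0.46), the Hox cluster miRNAs of the hindbrain, were called in opposite directions at summed levels of 7.90 to 56.68 CPM in adult and 9.33 to 184.6 CPM in infant controls. Of the liver and muscle markers, at 183.7 to 350.1 CPM in adult and 131.2 to 293.8 CPM in infant controls, miR-1b (0.83 ± 0.22) and miR-133a-3p (0.45 ± 0.19) were higher and miR-206-3p (-1.07 ± 0.27) lower, and miR-133a-3p lost its call without any of 6 libraries (adjusted p up to 0.0934). The epithelial markers miR-182 (-0.46 ± 0.33) and miR-183-5p (-0.33 ± 0.49) were not called, and the summed epithelial level was 19.4 to 151.5 CPM in adult and 11.99 to 91.6 CPM in infant controls.

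The choroid plexus list rested on infant 2. Its summed level was 1007.2 to 2570.8 CPM in adult controls and 590.4 to 12640.5 CPM in infant controls, where the median was 1053.8 CPM. With all libraries, miR-448-3p (-2.27 ± 0.57) and miR-1298 (-1.64 ± 0.63) were called lower and miR-204-5p (-0.07 ± 0.41, adjusted p = 0.89) was not called. Without infant 2, miR-204-5p was higher in adult controls, with a log2 fold change of 1.06 (edgeR, adjusted p = 0.000159), miR-1298 had 0.06 (adjusted p = 0.913) and miR-448-3p -1.04 (adjusted p = 0.0301). The part of tissue from the choroid plexus in the difference of miR-449a-5p, which was highest in the same library, was not tested. Its log2 fold change was -4.36 without the 3 libraries that stood apart.

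The same ages were compared in the SE rats of the acute stage, which share no library with the controls but were part of the same fit. Of 383 miRNAs 244 were called there (63.7%), and 204 of the 257 calls of the controls were called in the same direction, 79.4% of the control calls and 83.6% of the SE calls. Only miR-448-5p was called in opposite directions (-1.37 in controls and 1.63 in SE rats). Its other arm, miR-448-3p, is a choroid plexus marker that infant 2 held at 1276.5 CPM, with 189.8 CPM the next infant control. The choroid plexus list had a median log2 fold change of -1.64 in controls and 1.19 in SE rats. The cause of this reversal was not tested. The log2 fold change between the ages in SE rats was 2.63 for miR-29a-3p, 3.30 for miR-338-3p, 1.78 for miR-219a-2-3p, -4.57 for miR-449a-5p, -3.16 for miR-298-5p and -1.32 for miR-17-5p. miR-155-5p, at -0.28 (adjusted p = 0.563), and miR-181a-5p, at -0.01 (adjusted p = 0.948), were not called there.

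Controls of the later stages, other rats of the same arms, showed how the difference stood at greater ages. Their comparisons with the acute difference share the acute controls. In the latent stage (postnatal days 67 and 19) 234 of 406 miRNAs were called (57.6%), and 199 of them were called in the same direction as in the acute controls, 77.4% of the acute and 85.0% of the latent calls, with none opposite. In the chronic stage, when both arms were adult, 29 of 442 were called (6.56%), 10 higher (2.26%) and 19 lower (4.3%) in the adult arm. Only 8 of the 257 acute calls were called there in the same direction, 3.1% of the acute and 27.6% of the chronic calls, and 10 in the opposite one, let-7b-3p, let-7d-3p and miR-450a-5p among them. let-7a-1-3p and let-7c-2-3p, both among these 10, have the same mature sequence and are not separate results. The count of 29 chronic calls depends on the fit, with 45 calls in DESeq2, 153 in limma voom and 9 when only the groups compared were fitted. Levels of the stages come from separate tables with a scaling of their own, so only the differences between the arms were tested against each other.

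The difference between the arms itself differed between the acute and latent stages for 19 of 383 miRNAs (4.96%), 15 in the positive (3.92%) and 4 in the negative direction (1.04%). miR-219a-2-3p was called in the acute stage and not in the latent stage, where it measured from 2617.6 to 9087.8 CPM (median 4798.5) in the adult arm and from 3303.5 to 6408.9 CPM (median 4924.1) in the infancy arm. Its log2 fold change was 2.06 in the acute and 0.03 in the latent stage (adjusted p = 0.907), a difference of 2.05 ± 0.32 (edgeR, adjusted p = 2.74e-06). miR-219a-5p had 2.13 in the acute and -0.07 in the latent stage, a difference of 2.25 ± 0.54. miR-338-3p behaved otherwise and stayed apart in the latent stage, with 810.3 to 1836.6 CPM (median 1139.7) in the adult arm and 201.6 to 358.4 CPM (median 276.6) in the infancy arm. Its log2 fold change was 2.08 there, smaller than in the acute stage by 1.64 ± 0.22. In the chronic stage it was 0.50 (adjusted p = 0.0611). Among the oligodendrocyte miRNAs, the arms overlapped for miR-219a-2-3p in the latent stage and did not for miR-338-3p.

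The miR-29 family also stayed apart in the latent stage. miR-29a-3p measured from 17965.5 to 30214.2 CPM (median 22678.1) in the adult arm and from 4830.5 to 6818.5 CPM (median 6090.0) in the infancy arm. The log2 fold change of 1.91 was smaller than the acute one by 1.29 ± 0.13 (edgeR, adjusted p = 1.73e-11). In the chronic stage it measured from 24503.5 to 34486.5 CPM (median 28413.1) in the adult arm and from 27883.9 to 38262.9 CPM (median 37561.5) in the infancy arm, with a log2 fold change of -0.29 (adjusted p = 0.0509). The acute and chronic differences differed by 3.50 for miR-29a-3p, 4.02 for miR-29b-3p, 3.08 for miR-29c-3p and 3.22 for miR-338-3p, among 224 miRNAs of 383 (58.5%) for which they differed, 107 in the positive (27.9%) and 117 in the negative direction (30.5%). miR-212-5p (1.74 acute, 0.59 latent), miR-132-5p (1.78 and 1.10), miR-27a-3p (1.47 and 0.61) and miR-27b-3p (1.43 and 0.66) had smaller differences in the latent stage as well. Of the miRNAs that were lower in adults, miR-181d-5p (-1.61 acute, -0.82 latent) and miR-298-5p (-3.97 and -2.92) came closer between the arms.

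Most other acute differences were not shown to change by the latent stage. miR-449a-5p measured from 6.01 to 19.72 CPM (median 11.57) in the adult arm and from 69.10 to 177.0 CPM (median 111.4) in the infancy arm of the latent stage, a log2 fold change of -3.29. In the chronic stage the medians were 9.94 CPM in the adult arm and 14.70 CPM in the infancy arm (-0.67, adjusted p = 0.154). miR-17-5p had -1.28 in the latent and -0.17 in the chronic stage (adjusted p = 0.554), and miR-26a-5p 0.90 and -0.08 (adjusted p = 0.766). miR-9a-5p, lower in adults in the acute stage, had -0.07 in the latent stage (adjusted p = 0.508).

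**Figure D5:**
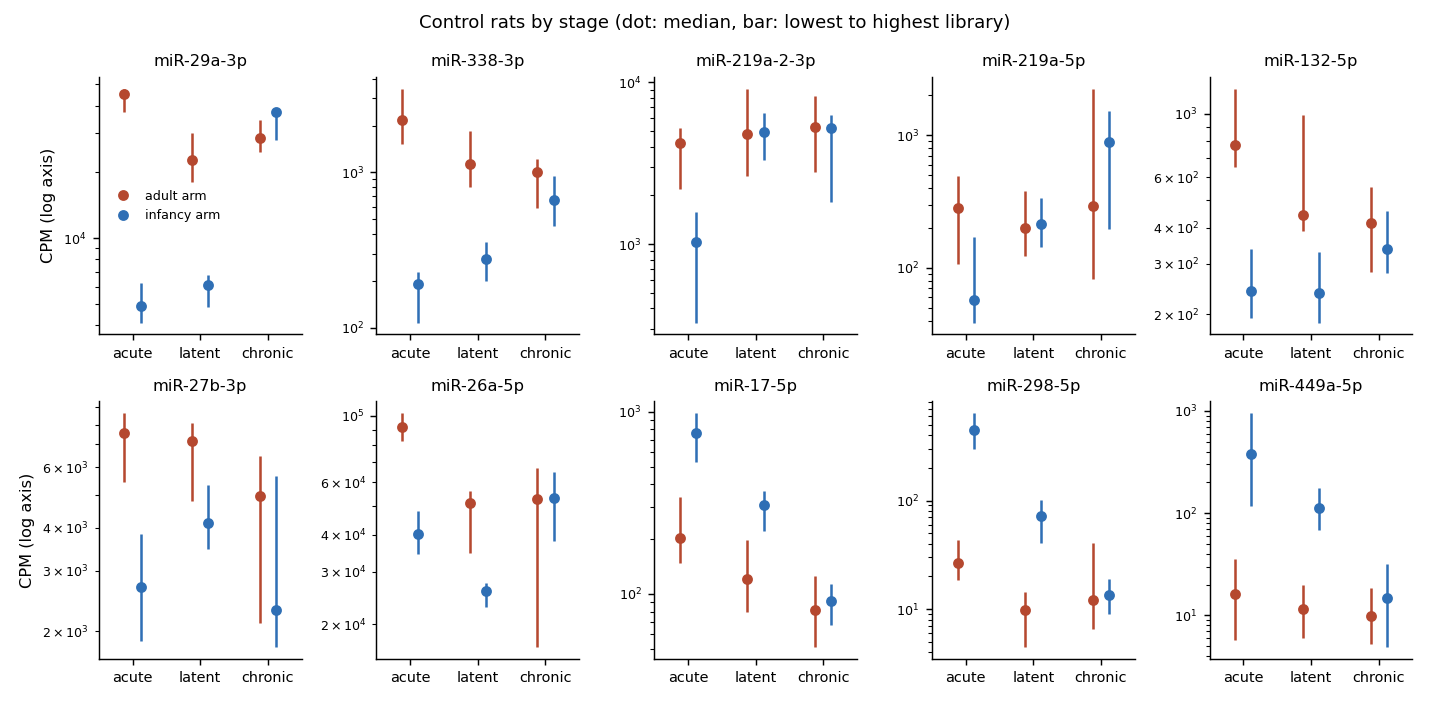
CPM (log axis) of 10 miRNAs in control rats of the adult arm (red, left) and the infancy arm (blue, right) in the acute, latent and chronic stages, with the median as a dot and the lowest and highest library as a bar. Stages were scaled separately. The arms of miR-219a-2-3p meet in the latent stage (medians 4798.5 and 4924.1 CPM), while those of miR-29a-3p and miR-338-3p overlap in the chronic stage and not before.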

How the data were processed

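Total RNA of whole hippocampus was made into libraries by the authors with the NEXTflex Small RNA-Seq Kit v3 from 1.1 µg of RNA. They removed adapters with Kraken tools and Cutadapt, kept reads of 16 to 28 bases with a Phred score of at least 10 over most bases, and assigned them to miRBase v22 with seqBuster, allowing 1 mismatch. The paper gives these steps for its rats of the chronic stage, and they were taken to hold for the acute stage. The deposited counts are raw reads per mature miRNA, and the deposited signal is the authors' normalized reads, the counts divided by a size factor per library (DESeq2 1.16.1 in the submitters' processing notes). miRNA genes, sequences and clusters come from RefSeq tables of GRCr8, where 30 genes with no hairpin entry were placed by their mature sequences.

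Counts of the 4 acute groups (adult and infancy, SE and control) were fitted together in edgeR 4.0.16 (R 4.3.3) with TMM scaling, miRNAs with more than 500 reads over the stage, the quasi-likelihood F test and Benjamini-Hochberg adjustment. Standard errors are the absolute log2 fold change divided by the square root of F. Latent and chronic stages were fitted alike, and the differences between stages in 1 fit of the 6 control groups. Alternatives were median-of-ratios and total scaling, DESeq2 1.42.0, limma 3.58.1 (voom with sample weights, and trend on log2 normalized reads with pseudocounts of 1 and 10), no filter, only the groups compared, thinning to 309975 reads and leaving out each library. The test was also run once on simulated counts with known folds. Python 3.11.15 (pandas 2.3.3, matplotlib 3.10.9) served for summaries and plots. Replicates are numbered in accession order. The p-values weigh the difference between group means against the spread between libraries within groups, where rat, preparation and depth are mixed. Depth sets precision at low levels, and counts of PCR reads carry no molecular identifiers.

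The members and lists were chosen with earlier results of these data known. Named miRNAs are the 12 called in each direction with the most extreme fold changes and at least 50 CPM in either group, the 10 most abundant, up to 4 members of each list with the lowest p, 4 arm pairs that were opposite or most different, and up to 4 calls with the lowest p of each test between stages. Further arm pairs and members of a described family or cluster were named after their values were seen.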

Additional observations from a re-analysis of the deposited data

Results flagged for a closer look

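A library far from the others of its group was found in 31 of 220 groups of 9 libraries examined. For independent, normally distributed values about 1 in 20 would be flagged. The groups reuse the same libraries and are not independent, so that rate is only a rough guide. Of the 31, adult 4 accounted for 12, infant 2 for 9, adult 1 for 5, infant 4 for 3, and adult 9 and infant 3 for 1 each. Values are CPM, each set beside the nearest other library of its group.

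Adult 4 was the lowest adult control for miR-9a-5p at 122590.6 (next 172877.1), miR-9a-3p at 17577.2 (next 41636.9), let-7f-5p at 23377.4 (next 33377.8) and let-7g-5p at 14567.8 (next 23336.4). It was also lowest for miR-19b-3p at 56.27 (next 106.7), miR-218a-5p at 10533.9 (next 17139.0), miR-1b at 95.72 (next 176.2) and miR-374-3p at 47.86 (next 127.1). It was highest for miR-15b-5p at 365.4 (next 284.3), miR-181a-5p at 36704.0 (next 25105.3), miR-145-5p at 655.8 (next 443.9) and miR-139-3p at 100.2 (next 64.99).

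Adult 1 was lowest for miR-219a-2-3p at 2181.6 (next 3528.6) and miR-30a-5p at 17006.8 (next 25619.7), and highest for miR-212-5p at 712.7 (next 482.5), miR-322-3p at 110.6 (next 62.39) and miR-155-5p at 108.6 (next 9.10). Adult 9 was highest for miR-182 at 103.8 (next 37.51).

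Infant 2 was the highest infant control for the choroid plexus markers miR-204-5p at 7930.6 (next 819.5), miR-1298 at 3433.5 (next 244.5) and miR-448-3p at 1276.5 (next 189.8). It was also highest for miR-124-3p at 18609.2 (next 10522.2), miR-23b-3p at 3058.2 (next 2173.7) and miR-195-5p at 1439.0 (next 1029.3), and lowest for miR-433-3p at 1057.8 (next 1612.1), miR-486 at 162.5 (next 272.7) and miR-146a-5p at 103.4 (next 203.5). Infant 4 was highest for miR-29b-3p at 431.1 (next 289.6), miR-29c-3p at 938.5 (next 755.2) and miR-219a-5p at 170.1 (next 82.09). Infant 3 was lowest for miR-20a-5p at 406.9 (next 651.1).

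The adult minus infant difference itself differed between the acute and latent stages for 19 of 383 miRNAs and between the acute and chronic stages for 224 of 383, by edgeR's quasi-likelihood test of the difference. Acute minus latent, it was larger by 1.29 for miR-29a-3p, 1.65 for miR-29b-3p, 1.25 for miR-29c-3p, 1.64 for miR-338-3p, 1.46 for miR-338-5p, 2.05 for miR-219a-2-3p and 2.25 for miR-219a-5p on the log2 scale. It was also larger by 1.17 for miR-212-5p, 0.71 for miR-132-5p, 0.89 for miR-27a-3p, 0.80 for miR-27b-3p and 2.66 for miR-10a-5p. The value was -0.77 for miR-181d-5p and -1.01 for miR-298-5p. Acute minus chronic, where the values given are those of the 4 miRNAs taken by lowest p from the 224, it was 3.50 for miR-29a-3p, 4.02 for miR-29b-3p, 3.08 for miR-29c-3p and 3.22 for miR-338-3p.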

How the results depend on the processing

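No paired analysis was possible because the adult and infant controls were different rats, and the labels give no pairing between them. Over the alternatives to the acute comparison, the number of calls ran from 240 (libraries thinned) to 320 (no filter on low counts, 623 miRNAs tested), beside 257, and was 258 in DESeq2. Leaving out 1 library gave from 242 to 258 calls. These 2 settings were chosen after seeing the data: without the 4 control libraries under 600000 reads there were 243 calls, and without adult 1, adult 4 and infant 2 there were 252. Of 89 called miRNAs named here, 73 kept their call in every alternative and 79 without any 1 library. Of 3190 values of the named miRNAs, 3059 kept their direction and side of the threshold, 100 lost the call, 23 gained one and 8 reversed. The reversals were miR-1298 and miR-204-5p, each under 4 settings. In limma voom with sample weights, without infant 2, without the 4 shallow libraries and without the 3 libraries that stood apart, miR-1298 had a log2 fold change of 0.11, 0.06, 0.17 and 0.19, and miR-204-5p one of 1.02, 1.06, 1.12 and 1.08. With 1 library left out, miR-1298 ran from -1.96 to 0.06 and miR-204-5p from -0.19 to 1.06. In the SE rats, leaving out 1 library gave from 229 to 244 calls, and in the latent controls from 227 to 237. Chronic control calls numbered 45 in DESeq2, 153 in limma voom and 9 with only the groups compared, and from 13 to 74 with 1 library left out. The acute and latent differences differed for 12 miRNAs with scaling by library totals and 78 in limma voom, and for 13 to 27 with 1 library left out. For the acute and chronic differences the range was 208 to 226. The cause of these shifts was not tested. At 309975 reads in the shallowest library, miRNAs near 10 CPM rest on a few reads.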
